A study of Mus musculus with 18 samples.

Results

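The glypicans are 6 genes, Gpc1 to Gpc6, taken as the rows with these symbols out of the 55335 genes counted. RNA was measured by single-nucleus sequencing of the forebrain at embryonic day 14 (E14) in C57BL/6 mice carrying the Myt1l S710fsX frameshift, which disrupts a transcription factor of neurons. There were 3 wild type (WT) embryos, 3 with 1 mutant allele (Het) and 3 with both alleles mutant (KO), each measured in 2 runs that were summed, so the embryo is the replicate (n = 3 per genotype). The embryos came from Het by Het matings over 3 litters, and the mutation was constitutive. The labels and the description of the dissection name the forebrain, while the description of the isolation of nuclei names the prefrontal cortex. Members are described across 7 classes of nuclei named from marker genes, across 38 clusters with at least 20 nuclei in every embryo, and across genotypes. The subset of neurons in which Gpc5 was lower in Het and KO was selected on the Gpc5 levels of the same 9 embryos. That comparison is therefore given as a description without a test.

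Glypicans are heparan sulfate proteoglycans held on the outer cell surface by a lipid anchor. Their sulfated sugar chains bind secreted signals such as Wnt, Hedgehog, FGF, BMP and Slit proteins, and the lipase Notum can release them from the membrane. In the nervous system Gpc4 and Gpc6 are best known as factors from astrocytes that promote excitatory synapses, Gpc4 also binds the postsynaptic proteins Lrrtm4 and Gpr158, and Gpc2 (cerebroglycan) is known from newly formed neurons. Gpc3 restrains Hedgehog signalling and body growth, and Gpc5 can enhance Hedgehog signalling.

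Of 261143 barcodes, 194630 nuclei were kept, with medians of 2520 UMIs (counted RNA molecules) and 1572 genes, and 14801 to 26065 nuclei per embryo. Totals per embryo ran from 42858361 to 74123874 UMIs, and 311 barcodes were shared by the runs of 1 embryo against 2457 shared by runs of different embryos. Het 1 stood apart in holding all 733 nuclei of a cluster of diencephalic neuron-like nuclei, which lies outside the 7 classes. WT 3 was the 1 embryo with Xist RNA (371 CPM, which is UMIs scaled to a total of 1000000, against at most 0.687 CPM in the others), which bears on Gpc3 and Gpc4 because both lie on the X chromosome. The study's methods describe both sexes within each genotype, which this pattern does not match for Het and KO. In radial glia-like nuclei WT 3 lay within the range of the other embryos for both genes, whereas in Cajal-Retzius-like nuclei it was the highest of the 9 embryos for both, at 46.4 CPM of Gpc3 and 55.4 CPM of Gpc4. Myt1l RNA itself was not lower in the mutants. Over all nuclei it was 1245 to 1270 CPM in WT, 1272 to 1444 CPM in Het and 1467 to 1598 CPM in KO, with no overlap between genotypes, so the RNA level does not report the loss of the protein.

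The 6 genes differ greatly in length, which matters for RNA from nuclei, where unspliced transcripts are counted. On GRCm38, Gpc5 spans chr14:115092215-116525179 on the plus strand (1433 kb, of which 0.311% is exon) and Gpc6 follows it on the same strand at chr14:116925315-117976544 (1051 kb, 0.611% exon), 400.1 kb downstream. Gpc4 (chrX:52053021-52165252, 112 kb) and Gpc3 (chrX:52272426-52613950, 342 kb) are also neighbours, on the minus strand, 107 kb apart. Gpc1 (chr1:92831645-92860779, plus strand, 29.1 kb) and Gpc2 (chr5:138273655-138280005, minus strand, 6.35 kb, 67.3% exon) are short. CPM is not corrected for length, so levels are compared between groups of nuclei for 1 gene at a time and never between genes. Because the use of strand in counting is not known, reads of Gpc1 and of Ankmy1, which overlaps its end on the opposite strand, could not be told apart, and the same holds for Gpc2 and the overlapping Gm43720 on its own strand. Gpc5 overlaps 3 genes on the opposite strand that do not code for protein.

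Gpc5 is the member whose level differed between genotypes in the neuron subset, so the 250 bases before its start (chr14:115091965-115092214, GRCm38.p6, plus strand, from RefSeq) are shown. Myt1l family proteins are known to bind AAGTT. On either strand this stretch holds no AAGTT and no AAAGTTT, and no letters are in capitals for that reason. In promoter windows of 300 bases, 39.3% of 32851 promoters hold AAGTT and 4.74% the longer AAAGTTT, which contains it. The 300-base window of Gpc5, of which the 250 bases shown are part, holds neither. No match says only that these letters are not in this window.
Gpc5: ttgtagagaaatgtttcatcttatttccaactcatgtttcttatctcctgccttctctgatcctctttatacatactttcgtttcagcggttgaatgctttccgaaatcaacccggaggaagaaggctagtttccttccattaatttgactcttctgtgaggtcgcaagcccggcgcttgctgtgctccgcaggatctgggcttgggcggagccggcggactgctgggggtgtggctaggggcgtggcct

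Radial glia, the stem cells of the embryonic forebrain, held the highest level of 4 of the 6 genes. Levels below are CPM per embryo, given as the lowest, median and highest of the 9 embryos. For Gpc4 they were 518, 576 and 640.3 in radial glia-like nuclei, 223, 253 and 269 in excitatory intermediate progenitor-like nuclei and 184, 196 and 235 in inhibitory progenitor-like nuclei. Gpc4 was lower again in excitatory neuron-like nuclei (133, 144 and 171), and lowest among neural classes in Cajal-Retzius-like (9.83, 31.6 and 55.4) and inhibitory neuron-like nuclei (16.4, 19.99 and 32.2). The range of radial glia-like nuclei did not overlap that of any other class, whereas both progenitor classes overlapped each other.

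Gpc6 was also highest in radial glia-like and then in excitatory intermediate progenitor-like nuclei, but the order of the classes below them differed. Its level was 2581, 2741 and 2987 in radial glia-like nuclei and 1529, 1629.7 and 2006 in excitatory intermediate progenitor-like nuclei. Inhibitory neuron-like (1234, 1299 and 1399.8) and inhibitory progenitor-like nuclei (1134, 1205 and 1287) overlapped each other and lay below both. Cajal-Retzius-like (387, 554 and 724) and excitatory neuron-like nuclei (500.5, 533 and 619.7) were lower and overlapped.

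Gpc3 was at 65.6, 71.6 and 87.4 in radial glia-like nuclei, with no overlap with the next classes, Cajal-Retzius-like (9.80, 23.9 and 46.4) and inhibitory neuron-like (19.6, 24.5 and 30.4). It was lowest among neurons in excitatory neuron-like nuclei (3.45, 3.85 and 4.59). Gpc1 was highest in radial glia-like nuclei by its median (95.3, 178 and 200.4), but its spread was wide and its ranges overlapped step by step through the inhibitory progenitor-like, Cajal-Retzius-like, excitatory intermediate progenitor-like and inhibitory neuron-like classes (51.0, 69.9 and 78.8 in the last). Excitatory neuron-like nuclei lay below all of these (40.2, 46.2 and 48.9). In 5 of the 7 classes the embryo numbered 1 had the lowest Gpc1 level of its genotype in all 3 genotypes.

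Gpc2 ran the other way. It was at 91.9, 106 and 109.8 in excitatory neuron-like nuclei, at 88.1, 101 and 109.8 in excitatory intermediate progenitor-like nuclei and at 86.8, 99.3 and 106 in inhibitory neuron-like nuclei, and these classes did not differ beyond their spread. Inhibitory progenitor-like nuclei were lower (54.8, 66.9 and 72.1), and radial glia-like nuclei lay below all of the former (17.95, 20.3 and 29.2). Gpc5 showed no such order between classes. Its class medians ran from 36.8 in inhibitory progenitor-like to 86.8 in inhibitory neuron-like nuclei, and each class overlapped its neighbour in that order. That order depended on the clustering, which also changed the nuclei held in the classes named next. What shifted the levels was not tested. When nuclei were clustered without the glypicans, Gpc5 in radial glia-like nuclei was at 19.8, 31.7 and 42.8, the lowest median of the neural classes, against 54.9, 76.7 and 92.3 above, and its mean in Cajal-Retzius-like nuclei was 77.9 against 51.1. Microglia and macrophage-like nuclei, which come from outside the neural lineage, had the lowest median of every member, 10.1 for Gpc1, 19.2 for Gpc2, 0 for Gpc3, 13.2 for Gpc4, 0 for Gpc5 and 138 for Gpc6.

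**Figure D1:**
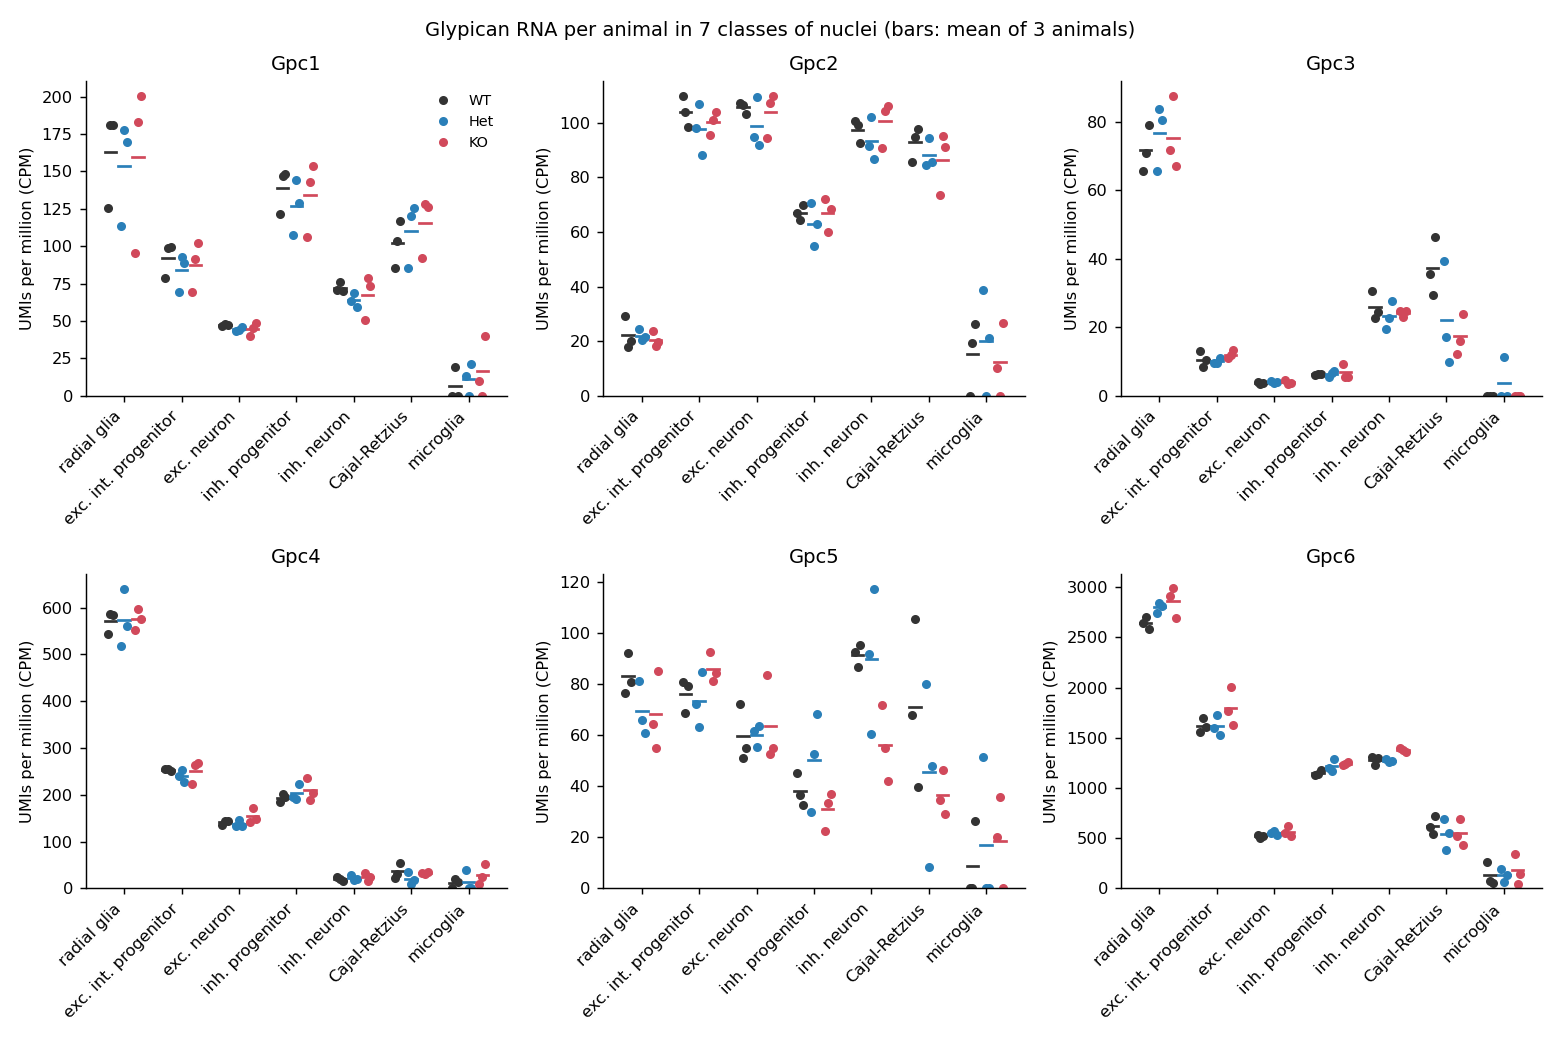
Level of each glypican in CPM (y axis, linear, 1 panel per gene with its own scale) in 7 classes of nuclei (x axis), with 1 point per embryo coloured by genotype. Gpc3, Gpc4 and Gpc6 stand highest in radial glia-like nuclei without overlap, Gpc2 is lowest there among neural classes, and Gpc5 overlaps from class to class.

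Clusters showed finer differences than classes. They are named here by number and leading genes, and a cluster set against the rest is no test, since the same genes made the clusters. Gpc4 was highest in a cluster of radial glia-like nuclei led by Lpar1 (cluster 2, 699 to 841 CPM over 9 embryos). Gpc6 was highest in an inhibitory neuron-like cluster led by Ikzf1, Rarb and Tac1 (cluster 29, 4195 to 4849 CPM), which also expressed Ebf1 and held 43.0% of the Gpc6 UMIs of its class in 10.2% of the nuclei. Gpc2 had its highest median over embryos in an excitatory neuron-like cluster led by Tfap2d, Cbln2 and Sema3c (cluster 22, 114 to 147 CPM) and its highest WT mean in a cluster led by Cxcl12 and Itga4 (cluster 30, 107 to 134 CPM). Cluster 30 was put with the excitatory intermediate progenitor-like nuclei, of which it made up 55.3%, by 5 of 8 markers. It also held 6 of 6 markers of later-born or migrating neurons and 1270 CPM of Myt1l, against 63.9 and 229 CPM in the other clusters of that class, which are led by Eomes and Sypl2 (clusters 27 and 26) and had Gpc2 at 72.2 to 95.5 and 49.9 to 71.0 CPM. Levels of that class thus mix clusters that differ in these markers. Gpc1 had its highest WT mean in a radial glia-like cluster led by Ano1 with Otx2 among its leading genes (cluster 15, 118 to 250.2 CPM) and its highest median in cluster 13.

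In several classes 1 cluster held most of the Gpc5. Gpc5 was highest in an unnamed cluster led by Pappa2, Cpne8 and Car10 (cluster 25, 609 to 1022 CPM), followed by an inhibitory neuron-like cluster led by Gbx1 and Pde3a that also expressed Adarb2 (cluster 32, 239 to 985 CPM). Cluster 32 made up 6.37% of inhibitory neuron-like nuclei and held 63.1% of their Gpc5 UMIs. Among radial glia-like nuclei, the Otx2 cluster made up 15.5% of nuclei and held 65.6% of Gpc5. Among Cajal-Retzius-like nuclei, a cluster led by Skor1 (cluster 35) made up 25.3% of nuclei and held 85.2% of Gpc3, 75.3% of Gpc5 and 76.1% of Gpc6. Cajal-Retzius-like nuclei held few Gpc3 UMIs (98, 75 and 56 in WT, Het and KO).

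**Figure D2:**
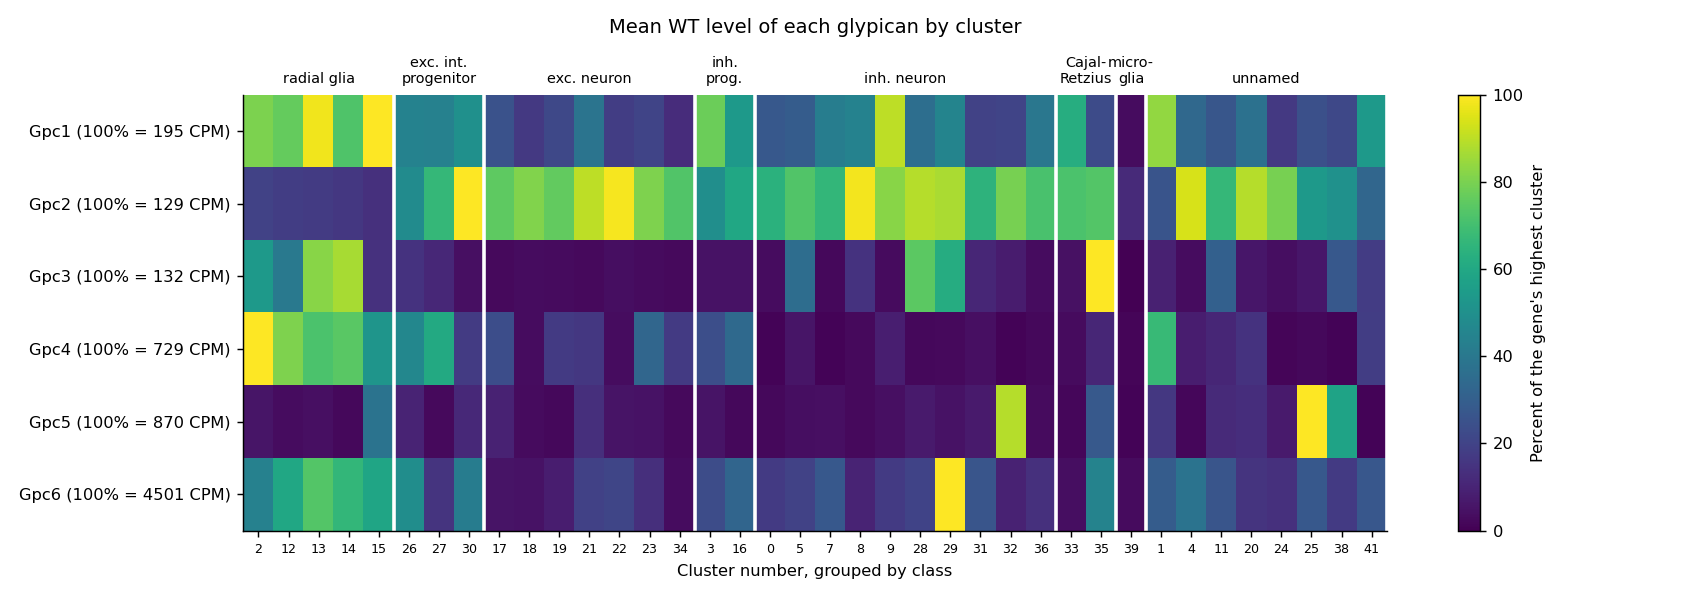
Heat map of the WT mean of each glypican (rows) in 38 clusters (columns, numbered and grouped by class), as a percent of that gene's highest cluster, whose level stands beside the gene. Gpc5 and Gpc6 each peak in a few clusters, while Gpc2 is spread over neuron clusters.

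Across genotypes no glypican passed the test in any class. The test was edgeR's quasi-likelihood test on counts summed per embryo and class, and a gene was called where its adjusted p over all genes of the class was under 0.05 and its log2 fold change was above 0.2 or below -0.2. Of 42 gene and class pairs 37 had enough counts, and in microglia and macrophage-like nuclei this was Gpc6 alone. For Het against WT 0 of 37 were called by edgeR, with 0 at an unadjusted p under 0.05, and 0 by DESeq2 with 0 unadjusted. Over all genes 0% (0 of 92613) were called and 2.76% had an unadjusted p under 0.05 by edgeR. For KO against WT 0 of 37 were called by either tool, with 5 (13.5%) at an unadjusted p under 0.05 by edgeR and 3 by DESeq2, which gave no adjusted p for 3 of the 37. Over all genes 0.381% were called and 6.63% had an unadjusted p under 0.05. For KO against Het 0 of 37 were called by either tool (4 unadjusted by each, all genes 0.0108%). In the test of any genotype difference 0 of 37 were called (2 unadjusted by edgeR and 4 by DESeq2, all genes 0.154%). Over all genes 3.76% and 4.52% had an unadjusted p under 0.05 by edgeR in these comparisons.

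The fitted differences were small in most pairs. For KO against WT the log2 fold changes ran from -1.04 to 0.71 with a median of 0.01, and 33 of 37 lay within 0.5 of 0. For Het against WT they ran from -0.67 to 0.37 with a median of -0.02, and 34 of 37 lay within 0.5. Examples of well measured genes follow, and Gpc6 is taken up after them. Gpc4 in radial glia-like nuclei was at 571 ± 24.3 CPM in WT (SD, n = 3), 573 ± 61.9 CPM in Het and 575 ± 22.7 CPM in KO, with a log2 fold change of 0.02 for KO against WT and a 95% interval of -0.14 to 0.19. Gpc2 in excitatory neuron-like nuclei was at 106 ± 2.16, 98.7 ± 9.42 and 104 ± 8.25 CPM, with a KO log2 fold change of -0.0038 and an interval of -0.16 to 0.16. Gpc1 in the same nuclei was at 47.4 ± 0.781, 44.7 ± 1.39 and 44.7 ± 4.35 CPM, and all Het embryos lay below all WT embryos (log2 fold change -0.07, SE 0.07, adjusted p = 1.00 by edgeR).

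For Gpc6 the KO log2 fold change against WT was above 0 in 6 of 7 classes, from 0.12 in inhibitory progenitor-like to 0.71 in the few microglia and macrophage-like nuclei, and -0.18 in Cajal-Retzius-like nuclei. These differences were not compared between classes. In inhibitory neuron-like nuclei it was at 1311, 1234 and 1299 CPM in WT, 1286, 1259.5 and 1266 CPM in Het and 1399.8, 1377 and 1362 CPM in KO, with no overlap between KO and either other genotype (log2 fold change 0.14, SE 0.06, adjusted p = 0.691 by edgeR, and 0.02 in run 1 alone). In inhibitory progenitor-like nuclei every KO embryo also lay above every WT embryo (0.12, SE 0.07, edgeR adjusted p = 1.00). In excitatory intermediate progenitor-like nuclei the difference was 0.18 (SE 0.09, edgeR adjusted p = 0.994), and leaving out 1 embryo moved it from 0.08 (without KO 2) to 0.26 (without KO 3). None of these passed the test, and the classes share embryos, so they are not independent.

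**Figure D3:**
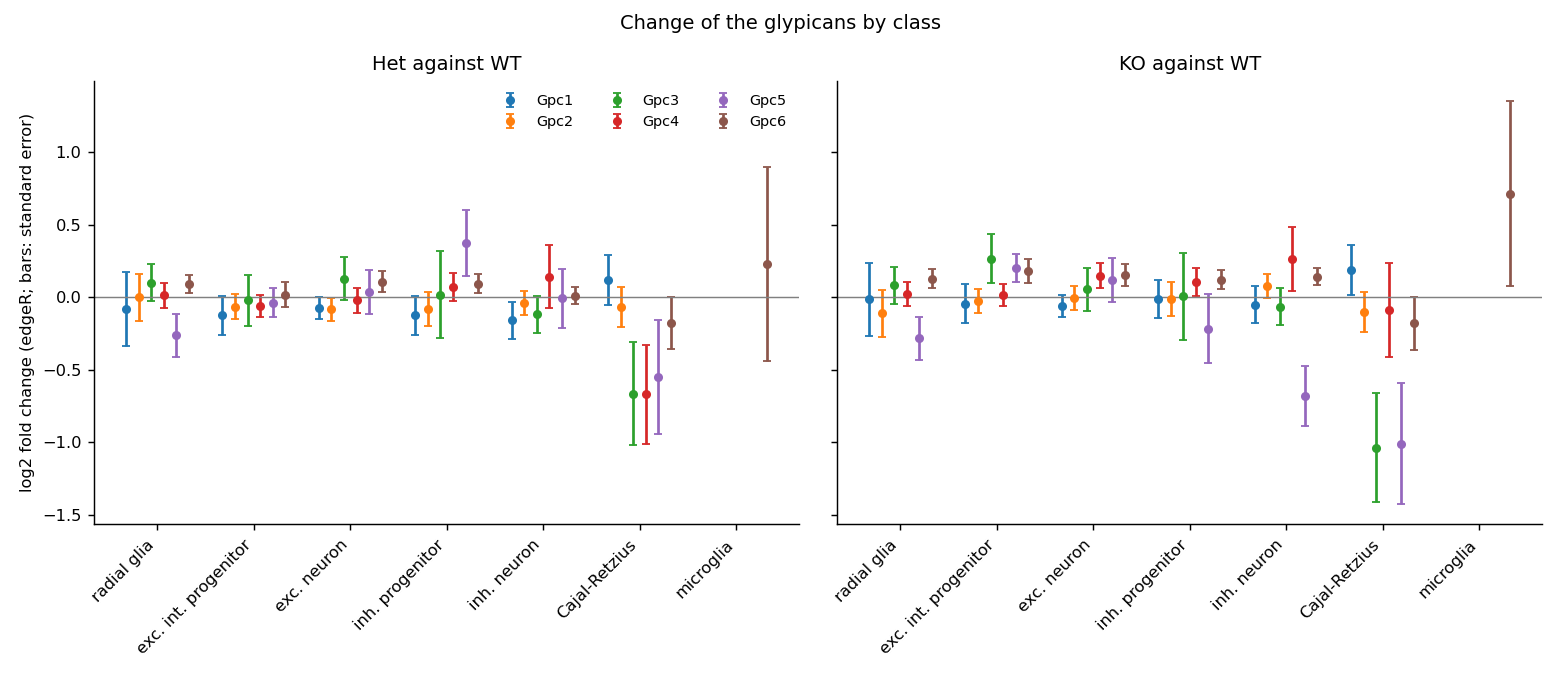
Log2 fold change (y axis) of each glypican in Het and in KO against WT by class (x axis), with bars of 1 SE from edgeR. Most points lie within 0.5 of 0, and those farther from 0 are Gpc3 and Gpc5 (and Gpc4 in Het) in Cajal-Retzius-like nuclei, Gpc5 in KO inhibitory neuron-like nuclei and Gpc6 in the few KO microglia.

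Gpc5 in inhibitory neuron-like nuclei had the lowest unadjusted p of the KO comparison. It was at 92.7, 86.8 and 95.5 CPM in WT, 91.8, 60.5 and 117 CPM in Het and 71.8, 54.8 and 42.1 CPM in KO. Every KO embryo lay below every WT embryo, while Het spanned both. The log2 fold change was -0.68 (SE 0.21, unadjusted p = 0.00602, adjusted p = 0.455 by edgeR), so it was not called, and 0.0331% of all genes were called in this class. The same nuclei without cluster 32 were at 34.9 ± 5.03 CPM in WT, 33.3 ± 1.49 CPM in Het and 27.1 ± 4.96 CPM in KO (SD, n = 3). Cluster 32 by itself was at 688, 852 and 778 CPM in WT, 835, 506 and 985 CPM in Het and 407, 585 and 239 CPM in KO, again with KO below WT and Het spanning both. Its log2 fold change was -0.89 (SE 0.24, edgeR adjusted p = 0.168), and 0.282% of all genes were called in this cluster. Without KO 2 it was -1.24 with an edgeR adjusted p of 0.0356, which would be a call, and leaving out 1 embryo at a time gave values from -1.24 to -0.59 (without KO 3). Cluster 32 made up 4.68 to 9.33% of the class in single embryos, with overlap between genotypes. In cluster 32 the summed level of the 8 excitatory neuron markers was 343 to 425 CPM in WT and 442 to 509 CPM in KO without overlap, and its part in the Gpc5 values was not tested.

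In excitatory neuron-like nuclei Gpc5 was at 72.4, 51.3 and 55.1 CPM in WT and 83.4, 52.7 and 54.8 CPM in KO, with overlap. The KO log2 fold change of excitatory minus that of inhibitory neuron-like nuclei was 0.81 (SE 0.16, unadjusted p = 0.000181), but over 20115 genes the adjusted p was 0.104 by edgeR, and 0.109% of genes were called. A difference between these classes therefore did not pass the test.

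In Cajal-Retzius-like nuclei, early born neurons of the cortical surface that secrete reelin, the values of Gpc3 and Gpc5 were low in KO. Gpc3 was at 35.5, 29.5 and 46.4 CPM in WT, 39.2, 17.2 and 9.80 CPM in Het and 12.2, 15.9 and 23.9 CPM in KO, so that all KO embryos lay below all WT embryos (log2 fold change -1.04, SE 0.37, adjusted p = 0.355 by edgeR). It ran from -1.38 without KO 3 to -0.14 with clustering at resolution 2, and was -0.85 without WT 3. At resolution 2 the class also took in a cluster of 3600 nuclei led by Gm28526 and Sim1. The value of -0.14 thus describes a different set of nuclei. Gpc5 there was at 67.9, 105 and 39.9 CPM in WT and 34.8, 46.2 and 29.3 CPM in KO, with overlap (-1.01, SE 0.42, edgeR adjusted p = 0.447, and -0.60 without WT 2). Neither passed the test. The Skor1 cluster that holds most of both made up 25.4, 24.1 and 27.9% of the class in WT, 40.1, 19.7 and 20.9% in Het and 23.7, 21.2 and 17.7% in KO, so all KO embryos lay below all WT embryos in this share as well. Within that cluster alone the KO values were also low. Gpc3 was at 134, 96.7 and 165 CPM in WT and 25.2, 63.9 and 112 CPM in KO (log2 fold change -0.94, SE 0.40, edgeR adjusted p = 0.897), and Gpc5 had a log2 fold change of -1.37 (SE 0.50, edgeR adjusted p = 0.774), both with overlap.

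Single clusters other than the Chat cluster described next were tested too. For KO against WT 0 of 203 glypican tests in 37 clusters passed by edgeR or DESeq2. DESeq2 gave no adjusted p for 19 of the 203. At an unadjusted p under 0.05 there were 33 (16.3%) by edgeR and 19 by DESeq2. Over all genes and clusters 0.314% were called, and 6.34% had an unadjusted p under 0.05 by edgeR. The count for Het against WT was also 0 by both tools (10 and 7 unadjusted, with 0.000795% of all genes called). It was 0 for KO against Het (26 and 12 unadjusted, 0.0384%) and for any difference (28 and 16 unadjusted, 0.175%). Over all genes and clusters 3.49, 4.37 and 4.79% had an unadjusted p under 0.05 by edgeR in these comparisons. DESeq2 gave no adjusted p for 13 of the 203 for KO against Het and 17 for any difference. With the replicate number as a block in the edgeR model, 3 of the 203 were called for KO against WT, where 0.861% of all genes and clusters were called. Gpc4 in an excitatory neuron-like cluster led by Btbd11 (cluster 19) was at 119, 132 and 117 CPM in WT, 113, 125 and 106 CPM in Het and 140.5, 195 and 146 CPM in KO, and KO lay above both other genotypes (log2 fold change 0.41, SE 0.12, edgeR adjusted p = 0.0813, and 0.00306 with the block). Without KO 2 this was 0.23, and without KO 3 it was 0.51 with an edgeR adjusted p of 0.0315, which would be a call. Gpc6 in a cluster led by Tafa1 (cluster 18) was at 262, 208 and 213 CPM in WT and 299.6, 278 and 265 CPM in KO without overlap (0.32, SE 0.10, edgeR adjusted p = 0.0932, 0.0137 with the block and 0.0351 without WT 1). Gpc5 in a cluster led by Sim1 (cluster 24) was at 73.0, 40.8 and 69.9 CPM in WT and 35.7, 30.5 and 50.9 CPM in KO with overlap (-0.59, SE 0.22, edgeR adjusted p = 0.369, and 0.0247 with the block).

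The neuron subset in which Gpc5 was low in Het and KO was sought among 22 clusters with enough nuclei and Gpc5, which were either neuron-like or unnamed with more than 100 CPM of Myt1l. The subset was the cluster in which every Het and every KO embryo lay below every WT embryo and, among such clusters, the sum of both log2 changes was lowest. At the resolution used this was cluster 38, and that resolution was chosen after a coarser clustering gave no such cluster. It held 571 nuclei (0.293% of all, 0.186 to 0.399% per embryo) with a median of 3228 UMIs. Its leading genes by fold over other nuclei included Chat, Prima1, Insrr, Slc10a4, Tacr1, Slc5a7, Gm29374, Ecel1 and Asic4. Chat makes acetylcholine, Slc5a7 takes up its precursor choline and Prima1 anchors acetylcholinesterase. It also held Lhx8 (613 to 696 CPM) and Isl1 (257 to 394 CPM), and 8 of 9 inhibitory neuron markers were detected (of 10 listed, Dlx6os1 was left out because it had 2 rows in the files), with Gad2 at 443 to 583 CPM and Slc32a1 at or below 13.8 CPM. Of all class lists, Cajal-Retzius had the highest share of markers that were detected and raised over other nuclei, while the inhibitory neuron list had the highest mean fold, so the naming measures differed. The marker lists used here hold no set for neurons that make acetylcholine, so the cluster keeps no cell type name and is called the Chat cluster.

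In the Chat cluster Gpc5 was at 305, 759 and 450.3 CPM in WT, 231, 27.6 and 109 CPM in Het and 44.2, 21.3 and 44.6 CPM in KO. All Het and all KO embryos lay below all WT embryos, by the choice of the cluster, while KO and Het overlapped in that Het 2 was as low as KO. The means were 505 ± 232 CPM in WT, 122 ± 102 CPM in Het and 36.7 ± 13.3 CPM in KO (SD, n = 3). The fitted log2 fold changes were -1.94 for Het and -3.80 for KO against WT. These values chose the cluster, so no test is given. They rest on few molecules, 68.3, 156 and 102 UMIs in WT, 51.4, 3.50 and 28.0 UMIs in Het and 5.25, 4.83 and 12.3 UMIs in KO, from 34 to 80 nuclei per embryo.

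**Figure D4:**
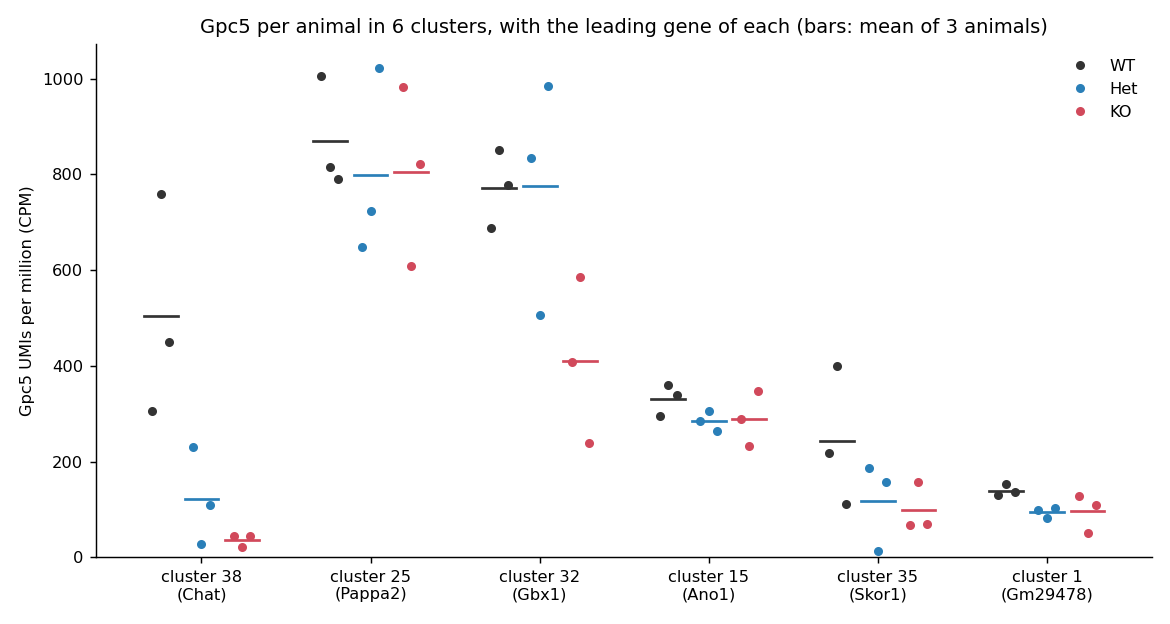
Gpc5 level in CPM (y axis, linear) per embryo (points) by genotype, with lines at the mean of 3 embryos, in the Chat cluster (cluster 38) and in 5 clusters compared with it (clusters 25, 32, 15, 35 and 1). In the Chat cluster the WT embryos lie between 305 and 759 and the KO embryos between 21.3 and 44.6, whereas in cluster 25 the genotypes overlap. In clusters 32 and 1 every KO embryo also lies below every WT embryo.

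The Gpc5 molecules came from few nuclei. In WT 37 of 206 nuclei of the Chat cluster (17.96%) held at least 1 Gpc5 UMI, and 23 nuclei with at least 3 (11.2%) held 94.3% of all 326 UMIs. In Het 21 of 183 nuclei (11.5%) held at least 1 and 10 (5.46%) at least 3, and in KO 10 of 182 (5.49%) held at least 1 and 2 (1.10%) at least 3. Median depth was 3006, 3286 and 3365 UMIs, so the mutant nuclei were not shallower. By embryo, nuclei with at least 3 numbered 6, 11 and 6 in WT, 6, 0 and 4 in Het and 1, 0 and 1 in KO, where 0 of 34 in Het 2 allows a share of up to 8.82% and 0 of 68 in KO 2 one of up to 4.41% (3 counts, counting error only). Het 1, with 6 of 72, was thus like WT in this count. As background, microglia and macrophage-like nuclei, which were assumed to lack the gene, held at least 1 Gpc5 UMI in 2.13% of WT, 2.61% of Het and 4.76% of KO nuclei at median depths of 2210, 2107 and 2195 UMIs. In a cluster led by Rspo2, Rspo1 and Lmx1a (cluster 41), whose depth was nearer (2793, 2837 and 3037 UMIs), the shares were 1.47, 2.61 and 2.14%. The KO share in the Chat cluster was near that of microglia, which rests on 5 of 105 KO nuclei, and above that of cluster 41. The WT share was above both. The Chat cluster was chosen for Gpc5 that was higher in WT than in both mutants. Cluster 41 held only 2.5 Gpc5 UMIs over its WT nuclei. These contrasts are therefore a description of that choice and no test of background.

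Single nuclei carried much of the sum. The nucleus with most Gpc5 UMIs held 19, 46 and 39 of them in WT 1 to 3 and 7 at most in KO. Without that nucleus in each embryo, a check added after the data were seen, Gpc5 was at 225, 545 and 281 CPM in WT, 164, 14.2 and 71.1 CPM in Het and 20.4, 12.2 and 20.2 CPM in KO. These are the values that chose the cluster, less 1 nucleus in each embryo. Clusters 25 and 32 had the same uneven pattern at similar depth. In cluster 25 33.3, 30.0 and 29.8% of WT, Het and KO nuclei held at least 1 Gpc5 UMI and 21.8, 17.7 and 18.1% at least 3. In cluster 32 the shares with at least 3 were 12.8, 12.1 and 8.77%, and in WT those nuclei held 95.03% of the UMIs.

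**Figure D5:**
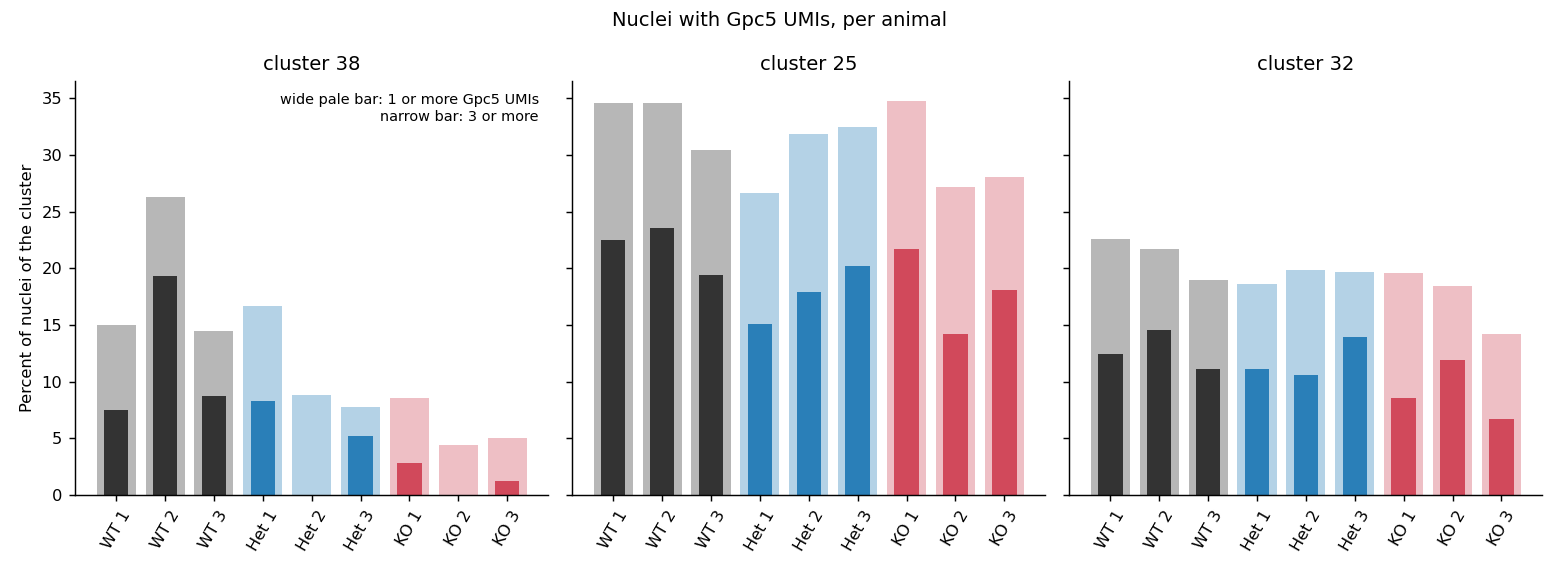
Percent of nuclei (y axis, from 0) with at least 1 Gpc5 UMI (wide pale bars) and at least 3 (narrow dark bars) in each embryo (x axis), in the Chat cluster, cluster 25 and cluster 32. In the Chat cluster the dark bars run from 7.50 to 19.3% in WT and from 0 to 2.86% in KO, while in cluster 25 they overlap between genotypes.

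The 23 WT nuclei of the Chat cluster with at least 3 Gpc5 UMIs were set beside the 169 WT nuclei with less than 1, as a description whose genes were chosen after their values were seen. The 10 genes with the highest ratio were Brinp3, Cdh7, Prkg1, Lypd6, Sorcs1, Slc35f3, Pcdh7, Kcnc2, Grin2a and Npas3. Npas3, a transcription factor of the bHLH-PAS family, was at 3030.5 CPM against 522 CPM, and Brinp3 at 1503 CPM against 138 CPM. The former nuclei were deeper, with a median of 3796 against 2883 UMIs. Because they were picked as high in WT nuclei of a cluster chosen on Gpc5, nothing is read from how many were lower in the mutants. Over the whole cluster Slc35f3 was at 148, 160.5 and 75.0 CPM in WT, 67.9, 41.4 and 69.9 CPM in Het and 70.6, 46.9 and 52.1 CPM in KO. Brinp3 was at 265, 379 and 388 CPM in WT, 217, 111 and 151 CPM in Het and 529.9, 107 and 200.8 CPM in KO. Of the 10 genes, Slc35f3 was the only 1 with every KO embryo below every WT embryo. The KO mean was below the WT mean in 7. It was above in Cdh7 (71.4 CPM in WT and 103 CPM in KO), Lypd6 (38.6 and 40.9 CPM) and Grin2a (15.3 and 30.6 CPM).

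The other glypicans overlapped between genotypes over the whole Chat cluster. Gpc6, the next gene along the chromosome, was at 678, 973 and 636 CPM in WT, 616, 539 and 812 CPM in Het and 556, 686 and 751 CPM in KO, with overlap between all genotypes. In run 2 alone, however, it was at 730, 999.5 and 686 CPM in WT and 542, 574 and 675 CPM in KO, without overlap. Gpc1 (29.2 to 62.2 CPM) and Gpc2 (53.0 to 112 CPM) overlapped as well, Gpc3 ranged from 0 to 76.3 CPM with overlap, and Gpc4 was at 26.5 CPM or less in every embryo. Chat itself was at 332, 316 and 366 CPM in WT, 303, 256 and 280 CPM in Het and 300.2, 273 and 294 CPM in KO, so both mutants lay below WT by a smaller margin than for Gpc5. Of the 19 marker lists only the inhibitory neuron list did not overlap between WT and KO. Its 9 markers summed to 1078 to 1236 CPM in WT, 1192 to 1254 CPM in Het and 1253 to 1775 CPM in KO. Gad1 was at 61.8 to 68.1 CPM in WT and 89.5 to 124 CPM in KO, and the other markers are not given by genotype here. Separation of this kind was common, since 346 genes tested in the cluster had every KO embryo below every WT embryo. No shift in cell identity is therefore read from this list or from Gad1. The part of these markers in the Gpc5 values was not tested. Leaving out Gpc5, 5 genes of 4334 (0.115%) were called by edgeR for KO against WT in the cluster, with Cadm2, Dlgap1 and Lrp1b lower and Kirrel3 and Phf21a higher.

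The size of the difference in both mutants depended on how the subset was drawn. The sets below share nuclei with the cluster chosen on Gpc5, so they describe that choice and are not independent of it. Clustering without the 6 glypicans found nearly the same nuclei at resolution 2 (540 nuclei, 538 shared), with Gpc5 means of 520.5, 125 and 38.8 CPM in WT, Het and KO. At resolution 1, and without the glypicans at resolution 1.5, the nuclei fell into a cluster of 4587 or 5567 nuclei with means of 558, 485 and 261 or 465, 408 and 223 CPM, in which every KO embryo but only 1 of 3 Het embryos lay below every WT embryo. Nuclei with at least 2 Chat UMIs, in any cluster, numbered 161 and were at 628, 226 and 30.1 CPM, with every Het and KO embryo below every WT embryo. With at least 1 Chat UMI there were 497 nuclei, 280 of them in the cluster, at 319, 124 and 87.8 CPM, and 2 of 3 embryos of each mutant genotype lay below WT. In that set KO 1 was at 226 CPM because 1 nucleus outside the cluster held 28 of its UMIs. The 217 nuclei with Chat outside the cluster had Gpc5 means of 59.7, 56.3 and 130.4 CPM in WT, Het and KO, from 82.0, 78.6 and 18.5 CPM in WT, 92.3, 28.0 and 48.7 CPM in Het and 373, 18.3 and 0 CPM in KO. Without the upper limits on UMIs and genes, 680 nuclei were at 460, 294 and 37.4 CPM, and Het 1 then reached 567 CPM, within the WT range. Of the nuclei of the cluster 488 came from run 2, where the means were 556, 143 and 43.3 CPM, and the 83 from run 1 were too few to read.

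Of the 22 clusters weighed, 7 had every KO embryo below every WT embryo (clusters 38, 31, 1, 29, 32, 9 and 20). The Chat cluster (cluster 38) was chosen for this pattern, and in cluster 20 the KO embryos lay just under WT 1. How often other genes show this pattern in these clusters is not given here, so nothing is read from the count of 7. Besides the Chat cluster, 1 of these 7 clusters also had every Het embryo below every WT embryo. This was a large unnamed cluster led by Gm29478 and Otx2os1 (cluster 1, 6910 nuclei). It was weighed because its Myt1l level of 102 CPM was just over the limit, and its markers were those of radial glia or inhibitory progenitors rather than neurons. There Gpc5 was at 129.4, 154 and 136 CPM in WT, 98.3, 82.8 and 104 CPM in Het and 128.5, 51.3 and 109.7 CPM in KO, with KO 1 just under WT 1. Just outside it lay the Skor1 cluster of Cajal-Retzius-like nuclei, at 219, 400 and 112 CPM in WT, 186, 12.97 and 157 CPM in Het and 67.1, 157 and 70.7 CPM in KO, and an inhibitory neuron-like cluster led by Sst (cluster 31), at 47.8, 55.6 and 86.7 CPM in WT, 27.7, 54.5 and 41.9 CPM in Het and 38.3, 45.7 and 30.6 CPM in KO. Both of these had 2 or 3 KO embryos below every WT embryo but at least 1 Het embryo within the WT range.

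The other genes of the heparan sulfate pathway were taken from 6 lists with 63 genes in all. Over the 7 classes 0 of 342 tests were called for Het against WT by edgeR. Of them 19 had an unadjusted p under 0.05, as did 2.76% of all tests. For KO against WT 3 were called, where 0.381% of all tests were called. None of 11 other proteoglycan cores, 6 enzymes of the linker, 5 chain polymerases or 6 genes for removing chains or anchors was called in a class. Of 16 genes for sulfation and epimerisation, 2 were lower in KO excitatory neuron-like nuclei, where 1.79% of genes were called. Ndst4, an N-deacetylase and N-sulfotransferase that starts chain sulfation, was at 20.8, 10.9 and 18.2 CPM in WT, 16.4, 11.4 and 13.4 CPM in Het and 9.19, 5.48 and 9.57 CPM in KO, without overlap between WT and KO (log2 fold change -1.001, SE 0.22, adjusted p = 0.0385 by edgeR). Hs3st2, a 3-O-sulfotransferase, was at 50.8, 50.4 and 42.4 CPM in WT and 28.3, 29.2 and 39.8 CPM in KO (-0.54, SE 0.12, edgeR adjusted p = 0.0379). Of 19 known partners of glypicans 1 was called. Slit1, a guidance cue that binds Robo receptors and heparan sulfate, was higher in KO Cajal-Retzius-like nuclei, where 0.157% of genes were called, at 136, 137 and 127 CPM in WT, 197, 184 and 197 CPM in Het and 183, 202 and 216 CPM in KO (0.59, SE 0.11, edgeR adjusted p = 0.0348). Het was as high as KO there (0.54, edgeR adjusted p = 0.896). When 1 embryo was left out, the log2 fold changes stayed between -1.23 and -0.80 for Ndst4, between -0.69 and -0.46 for Hs3st2 and between 0.55 and 0.64 for Slit1, but calls were lost. Without WT 1 none of the 3 was called, and none was without KO 2. Ndst4 was also lost without WT 3, Het 3 or KO 1, Hs3st2 without WT 2, Het 2 or KO 1, and Slit1 without WT 2, WT 3, Het 2, Het 3 or KO 3. With a block for the replicate number the lists gave 18 calls for KO against WT, 9 higher and 9 lower, where 1.79% of all tests were called.

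In single clusters 13 of 1751 tests over these lists were called for KO against WT by edgeR, 11 of them in excitatory neuron-like nuclei, and 0.314% of all genes and clusters were called. Over all genes 0.57% were called for KO against WT in cluster 0, 2.48% in cluster 18, 2.31% in cluster 19, 1.91% in cluster 23, 0.496% in cluster 25 and 2.43% in cluster 34. Ndst4 was lower in KO in the Tafa1 cluster (cluster 18, -1.27, SE 0.19, edgeR adjusted p = 0.000746) and in the Pappa2 cluster with most Gpc5 (cluster 25, 241, 239 and 282 CPM in WT, 111, 150.2 and 297 CPM in Het and 97.4, 121 and 67.6 CPM in KO, edgeR adjusted p = 0.0117). Spock3, a proteoglycan core of the testican family, was lower in KO in an inhibitory neuron-like cluster led by Nxph2 (cluster 0), at 119, 108 and 100.3 CPM in WT, 89.7, 88.6 and 107 CPM in Het and 81.1, 61.6 and 81.0 CPM in KO (-0.52, SE 0.12, edgeR adjusted p = 0.0446). Lrrtm4, a postsynaptic partner of Gpc4, was higher in KO in clusters 18 (0.45, SE 0.11) and 19 (0.47, SE 0.09), with edgeR adjusted p-values of 0.0277 and 0.00551. In cluster 19, where Gpc4 was high in KO with the block, Hs6st3 was at 56.3, 70.3 and 78.3 CPM in WT and 230, 163 and 130.1 CPM in KO (1.33, SE 0.17, edgeR adjusted p = 0.000226). In the Chat cluster, Hs6st3 was lower in every KO embryo than in any other, at 1733, 1406 and 2031 CPM in WT, 1372, 1872 and 2136 CPM in Het and 689, 584 and 1212 CPM in KO, but it did not pass the test there. As background, 346 genes tested in that cluster had every KO embryo below every WT embryo. There edgeR tested 4335 genes for KO against WT, and 5784 genes had a mean count of 5 or more. Nothing is therefore read from this pattern of Hs6st3.

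Genes whose level over the 38 clusters was most like each glypican were found by Pearson's r of log2(WT mean CPM + 1) among 11502 genes, as a description over clusters that share libraries. For Gpc1 the first was Ankmy1 (r = 0.944), the gene that overlaps it, followed by Nedd4 (0.889) and Syt11 (0.886), which lie on other chromosomes. For Gpc2 they were Soga3 (0.965), Atat1 (0.962), which encodes a tubulin acetyltransferase, and the overlapping Gm43720 (0.961). For Gpc4 they were Eny2 (0.878), Rhbdl3 (0.836) and the forebrain transcription factor Otx1 (0.834). Likeness was weaker for Gpc3 (Cadps2 0.764, Scrn1 0.728, Ranbp17 0.727), Gpc6 (Gm42648 0.748, Stox2 0.701, Sall2 0.696) and Gpc5 (the cadherin Cdh8 0.646, Tmem132e 0.631, Ppp4r4 0.600). Among the 15 pairs of glypicans r was highest for Gpc3 and Gpc6 (0.647), Gpc1 and Gpc6 (0.615) and Gpc1 and Gpc4 (0.555) and lowest for Gpc2 and Gpc4 (-0.462). Gpc5 and its neighbour Gpc6 had an r of 0.224, and the X-linked neighbours Gpc3 and Gpc4 one of 0.298.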

How the data were processed

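RNA was measured in nuclei of 9 embryos, each in 2 libraries (18 in all) barcoded with the Scale Biosciences kit. Per the methods and labels, the authors processed reads with the ScaleRna workflow against mm10. They deposited 1 matrix per library of estimated counts of UMIs per gene and nucleus, of which 6.70 to 8.71% of entries were not whole. These expected counts were summed and then rounded. Genotypes were taken from the sample titles. The genotype tag of run 1 reads WT for all 9 libraries, while that of run 2 matches the titles.

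Kept were nuclei with 300 to 3000 genes, 800 to 6000 UMIs, no more than 1% of UMIs from mitochondria and log(genes) divided by log(UMIs) at or above 0.9, and the 5% with the highest doublet scores were removed per library (194630 of 261143 barcodes). Clustering used scanpy 1.11.5 with 3000 variable genes, 50 principal components, 20 neighbours and the Leiden method at resolution 1.5, which gave 42 clusters. Classes were named from at least 3 detected markers, and 16.9% of nuclei stayed unnamed. Resolution 1.5 was chosen after resolution 1 gave no cluster that fitted the description of the subset. Variable genes included Gpc3, Gpc4 and Gpc5, so clustering was repeated without glypicans.

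Counts per embryo and class or cluster were tested with edgeR 4.0.16 (quasi-likelihood, two-sided, all 9 embryos, genotype alone, Benjamini-Hochberg over all genes tested). DESeq2 1.42.0 was an alternative. The scripts were tested on simulated data. Same-numbered embryos deviated together, with every correlation over 0.1 (0.101 to 0.352 over 9 pairs per class), in 4 of 7 classes, so replicate number was fitted as a block in an alternative. This pairing is a feature of the data, and its source is not stated. Intervals and limits at counts of 0 cover counting error only. The glypicans, the lists and the subset were chosen with earlier results of these data known. Named genes were the glypicans, Myt1l, the subset's 10 leading genes (1 is not reported here), each list gene called in a class (list genes called in single clusters were added after their values were seen), and the 3 genes most like each glypican. Genes of Gpc5-rich nuclei were named after their values were seen. Promoters came from RefSeq (4 of 6 glypicans matched).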

Additional observations from a re-analysis of the deposited data

Results flagged for a closer look

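Gpc5 for KO against WT stood out because all KO embryos lay below all WT embryos in inhibitory neuron-like nuclei and above all of them in excitatory intermediate progenitor-like nuclei. The log2 fold change was -0.68 in the former and 0.20 in the latter, where Gpc5 was at 81.0, 68.7 and 79.3 CPM in WT and 92.8, 81.3 and 84.3 CPM in KO. Neither passed the edgeR test, and the difference between these classes was not tested. Of 42 glypican and class pairs, 2 had every KO embryo below every WT embryo and 3 had every KO embryo above. The share of such pairs over all genes is not given here.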

How the results depend on the processing

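For KO against WT, 0 glypicans were called over classes, but 3 without a filter on low counts (Gpc3 and Gpc5 in Cajal-Retzius-like and Gpc5 in inhibitory neuron-like nuclei, all lower). Without that filter KO against Het gave 1 and the test of any difference 2. Over clusters the count for KO against WT was 6 without the filter, 3 with the replicate block, 2 without upper limits on UMIs and genes, 1 at resolution 3 and 0 to 2 when 1 embryo was left out (1 without WT 1 or KO 2, 2 without KO 3). For Het against WT it was 2 without the filter and 1 at resolution 3. The share of all genes called without the filter, without the upper limits or at resolution 3 is not given here. Nothing is therefore read from these counts.

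The heparan sulfate lists gave 3 calls for KO against WT, but 18 with the replicate block, 17 without the filter, 5 by DESeq2, 1 with the 6 embryos of the contrast alone, 1 at resolution 2, 0 in run 1 alone and 0 to 7 when 1 embryo was left out. Without WT 1 there were 0 and without KO 3 there were 7, and there was 1 without WT 2, WT 3, Het 2, Het 3, KO 1 or KO 2. Het against WT gave 5 without the filter. For KO against WT 0.381% of all tests were called in the main fit and 1.79% with the block. The share is not given for the other settings, so nothing is read from their counts. The block changed no call of a glypican over classes. No direction was reversed among the results compared, and the cause of these differences was not tested.

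In the Chat cluster, the Gpc5 log2 fold change ran from -4.08 to -1.04 in KO and from -2.68 to -0.16 in Het over the alternatives, and the smallest values came from clusterings that joined these nuclei to larger clusters. Depth limits these values, since single embryos held 3.50 to 156 Gpc5 UMIs there.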

Other observations

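Beyond the genes described above, further sulfation genes and partners of glypicans passed the edgeR test for KO against WT in single clusters of excitatory neuron-like nuclei. Hs3st4, a 3-O-sulfotransferase, rose in the Tafa1 cluster (cluster 18), where it was at 106, 109 and 107 CPM in WT, 141, 167 and 156 CPM in Het and 238, 179 and 207 CPM in KO (log2 fold change 0.97, SE 0.11, edgeR adjusted p = 2.76e-05). Sulf2, which removes sulfate groups from finished chains, rose in the same cluster (0.92, SE 0.18, edgeR adjusted p = 0.00766). Hs3st5 fell in a cluster with Nr4a2 among its leading genes (cluster 34), at 98.2, 124 and 129 CPM in WT and 61.7, 24.97 and 40.3 CPM in KO (log2 fold change -1.44, SE 0.23, edgeR adjusted p = 0.000952). The guidance receptor Robo1 fell in that cluster (-0.42, SE 0.10, edgeR adjusted p = 0.0252) and in cluster 23 (-0.51, SE 0.08, edgeR adjusted p = 0.00474). Ptch1, the Hedgehog receptor, rose in cluster 19 (0.82, SE 0.19, edgeR adjusted p = 0.0245). The same embryos enter every cluster, so these calls are not independent of each other.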
